A study of Mus musculus with 9 samples.

Results

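The cells described here are the arterial vascular smooth muscle cells (VSMCA) of the brainstem of mice that had slept normally. They were chosen by their names in the study's own list of brainstem cells, which joins a barcode, the group and a cell type, and not by any level measured here. Only a part of that list was used here, with 1999 brainstem normal-sleep cells, and it named 230 of them VSMCA. The 1999 barcodes were all held by the same library of the count table, which had 3731 cells in all, and the whole table had 29571 cells in 9 libraries. The study compared the cells of 3 brain regions, brainstem, cortex and hypothalamus, by single-cell RNA sequencing. Its sleep groups were normal sleep (NS), 12 h of sleep deprivation, and recovery sleep after 12 h of deprivation, with 1 library for each region and sleep group. The mice of all groups were male C57BL/6 animals (C57BL/6J in the study's methods) of 9 to 11 weeks, collected at Zeitgeber time 12, the end of the light phase. The NS mice slept at will, with 0 h of deprivation. Tissue of 3 mice was pooled in the library, dissociated with papain and cleared of myelin with magnetic beads before droplet capture. A pool leaves no animal to serve as a replicate, so no test between cell types or cells is given. Levels are UMIs of a gene in the summed cells of a type, scaled to a total of 1000000 UMIs (CPM), a UMI being 1 counted RNA molecule. They are compared between cell types for a gene and not between genes. Their 95% intervals are exact Poisson intervals, ratios carry exact conditional binomial intervals and shares of cells exact Clopper-Pearson intervals, and all of them cover counting error only. The other 8 libraries carried codes that neither the labels nor the part of the cell list used here joined to a region or sleep group, so the sleep comparison is not analysed here and those libraries are given by number.

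Arterial smooth muscle cells wrap the arteries and arterioles and set vessel diameter by contraction. Calcium drives myosin light chain kinase, which phosphorylates the regulatory light chain of myosin and lets myosin pull on actin, while myosin phosphatase and cyclic GMP reverse this. Many of their contractile genes are switched on by serum response factor and myocardin at a short element called the CArG box, and signalling from Notch3 maintains arterial mural cells. Pericytes, the mural cells of capillaries, share some of these genes but contract less or not at all.

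The 230 VSMCA held 308080 UMIs, from 506 to 3127 per cell with a median of 1319.5. The listed pericytes (168 cells) had a median of 726.5 UMIs, the endothelial cells (573) of 910 and the microglia (549) of 796, so VSMCA were the deeper side of each comparison. A count of 3 UMIs over all VSMCA, the floor used here for a gene at 0, was 9.74 CPM. The study named its cell types by known markers in these same counts, so marker levels describe the VSMCA and are no independent check of the name. *Acta2*, *Tagln*, *Myh11*, *Myl9*, *Cnn1* and *Mylk* were all at least 2-fold higher in VSMCA than in each of pericytes, endothelial cells and all other listed cells together. The summed level of these 6 genes was 23695 CPM in VSMCA, 3022 CPM in pericytes and 538 CPM in endothelial cells. Markers of other cells were also found. The 6 pericyte markers summed to 1964 CPM in VSMCA and 11918 CPM in pericytes, and the 6 endothelial markers to 318 CPM against 17329 CPM in endothelial cells. The 6 markers of the type that the study calls EPC summed to 448 CPM, of which *Rarres2* gave 379.8 CPM, against 1169 CPM in all other listed cells, and the 6 microglial markers to 240 CPM, with *Siglech* at 0. Of the 6 fibroblast and leptomeningeal markers, *Dcn*, *Col1a1*, *Pdgfra* and *Slc6a13* were at 0 in VSMCA, *Lum* had 1 UMI and *Col1a2* was at 51.9 CPM. The part of these other markers in the results below was not tested, apart from the comparisons given with and without marked pericytes. Hemoglobin genes took 0.251% of VSMCA UMIs against 0.851% in endothelial cells. No VSMCA was called a doublet by Scrublet, which marked 44 cells (1.18%) of the library. Of the VSMCA barcodes, 10 also occurred in another library, at most 2 in any single library.

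The contractile apparatus set these cells apart. *Acta2*, smooth muscle alpha-actin, stood at 7027 CPM (6734 to 7330) in VSMCA, 304 CPM in pericytes and 143 CPM in endothelial cells. This was 23.1-fold (17.2 to 31.8) over pericytes and 49.0-fold (39.8 to 61.0) over endothelial cells. The highest *Acta2* level in another listed type was 807 CPM, in macrophages. An *Acta2* UMI was found in 99.6% of VSMCA, from 0 to 66 UMIs in a cell with a median of 8, and only 1 cell had none. Among microglia, which should lack it, 8.74% of cells had an *Acta2* UMI, and after every cell was thinned to 500 UMIs the shares were 93.5% and 4.43%. *Tagln*, the actin-binding protein transgelin, was at 5992 CPM (5722 to 6272) and 12.0-fold (9.49 to 15.3) over pericytes. *Tagln* was detected in 97.4% of VSMCA and 1.82% of microglia. *Myh11*, the smooth muscle myosin heavy chain, was at 1756 CPM (1611 to 1910), against 101 CPM in pericytes and 33.9 CPM in endothelial cells. It was found in 79.6% of VSMCA, or 54.3% after thinning, and in 2.37% of microglia. The light chains *Myl9* and *Myl6* were found in 99.1% of cells each. *Myl9*, the regulatory chain, was 3.81-fold (3.37 to 4.33) over pericytes, and *Myl6*, the essential chain, 5.83-fold (5.12 to 6.65). The tropomyosins, which run along the actin filament, were higher too, *Tpm1* by 6.24-fold (4.66 to 8.53) and *Tpm2* by 9.70-fold (6.49 to 15.1) over pericytes.

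**Figure D1:**
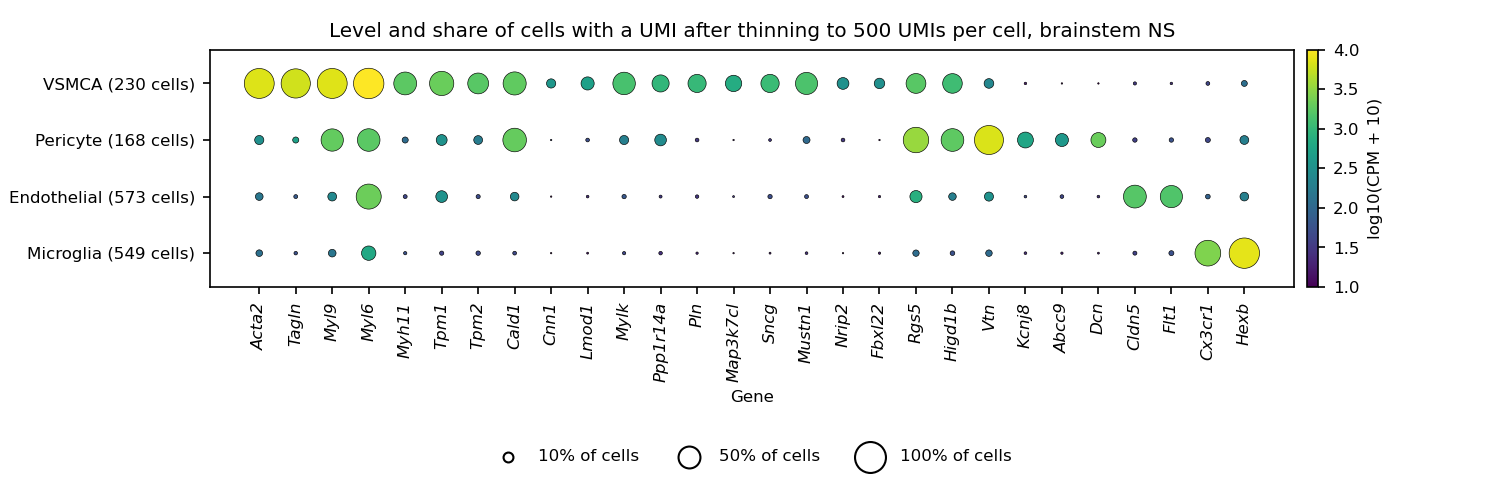
Each circle is a gene (x axis) in a listed cell type (y axis); its area is the percent of cells with a UMI after thinning to 500 UMIs per cell, and its colour is log10(CPM + 10) of the summed cells. The contractile genes from Acta2 to Mylk have their largest circles in the VSMCA row apart from Cald1, found in 55.7% of VSMCA and 57.9% of pericytes, and Vtn, Kcnj8, Abcc9 and Dcn are found in more of the pericytes than of the VSMCA.

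Over the list of 12 contractile filament genes, 10 were at least 2-fold higher in VSMCA than in pericytes and none lower, with a median log2 difference of 2.76. Among all 5000 genes with at least 10 UMIs over both types, 10.0% were at least 2-fold higher in VSMCA and 15.8% at least 2-fold lower, with a median of -0.17. These differences are log2 ratios of CPM with 10 CPM added to each side. Against endothelial cells 11 of 11 tested members were higher, where the background was 8.40% higher and 22.6% lower of 7849 genes. Against all other listed cells 12 of 12 were higher, with 4.77% of 11676 genes higher and 20.8% lower. The exceptions against pericytes were *Cald1* and *Actg2*. *Cald1*, caldesmon, which binds actin and tropomyosin, was at 1853 CPM in VSMCA and 1920 CPM in pericytes, a ratio of 0.965 (0.836 to 1.12). *Actg2*, the enteric smooth muscle actin, had only 9 UMIs. *Cnn1*, calponin, had no UMI in endothelial cells, so that its 373 CPM (308 to 448) was at least 80.7-fold higher. It was nevertheless found in only 25.7% of VSMCA. *Lmod1*, leiomodin, which nucleates actin filaments, was at 480 CPM and 11.8-fold (5.31 to 32.8) over pericytes. Per cell, the 12 genes made up 3.56% of UMIs in the median VSMCA, with a range from 1.19% to 7.63%. The median pericyte had 0.571% and the highest pericyte 4.07%. All 230 VSMCA lay above the median pericyte and 88 above the highest.

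The genes that switch contraction on and off moved with the filaments. *Mylk*, myosin light chain kinase, was at 1328 CPM (1202 to 1463), 7.27-fold (4.93 to 11.2) over pericytes and 23.9-fold (17.0 to 34.6) over endothelial cells. *Ppp1r14a*, which encodes the phosphatase inhibitor CPI-17, was at 928 CPM, and *Ppp1r12b*, a targeting subunit of myosin phosphatase, at 286 CPM. Both sides of the light chain switch, kinase and phosphatase, were thus higher in VSMCA, with *Ppp1r12b* 14.1-fold (4.66 to 69.6) over the 3 UMIs of pericytes. Of the 8 genes of contraction control, 6 were at least 2-fold higher than in pericytes and none lower. The GTPase *Rhoa* and the kinase *Rock2* were the remaining ones, at 0.763 (0.540 to 1.09) and 0.760 (0.350 to 1.72) times the pericyte level. Of the 12 genes of attachment and intermediate filaments, 9 were higher and none lower, against 10.0% and 15.8% of all genes tested. Among them *Csrp1*, a LIM protein of the cytoskeleton, was 11.8-fold (6.48 to 23.9) and *Des*, desmin, 3.84-fold (1.75 to 9.99) over pericytes. *Flna*, the actin cross-linker filamin A, was at 717 CPM and 15.01-fold (10.3 to 22.6) over endothelial cells.

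The promoters of these genes, most of which were at least 2-fold higher in VSMCA than in pericytes, were searched for the CArG box. The windows ran from 250 bases before to 50 after the start of RefSeq genes in GRCm38.p6. List members that were not higher, such as *Rhoa*, *Rock2*, *Cald1* and *Vcl*, were searched too. The box reads the same on both strands as a pattern. Of the 38 genes made up of the 15 leading genes described next and the 3 lists above, 30 had a window in the table. *Tagln*, *Map3k7cl*, *Myh11*, *Nrip2*, *Actg2*, *Rock1*, *Itga7* and *Nexn* were not in it. An exact box stood in 4 of the 30 genes (13.3%), namely *Myl9*, *Fbxl22*, *Myl6* and *Vcl*, against 1.81% of all 27025 genes of the table. With 1 mismatch allowed the numbers were 11 of 30 (36.7%) and 23.8%. Of the 7 genes of contraction control with a window, 0 had a box, exact or with 1 mismatch. *Acta2* had no exact box and 2 with a mismatch. The stretches that carry these boxes are shown 5′ to 3′ on the strand of the gene, with positions counted back from the start. Capitals mark exact boxes and the mismatched boxes of *Acta2*. The *Myl9* stretch also holds a mismatched box beginning at -99, left in small letters.
Acta2, mismatched boxes beginning at -84 and -34, chr19:34255378-34255477, minus strand: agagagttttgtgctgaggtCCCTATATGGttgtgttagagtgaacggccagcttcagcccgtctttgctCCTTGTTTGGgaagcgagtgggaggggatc
Myl9, exact box at -161, chr2:156775283-156775382, plus strand: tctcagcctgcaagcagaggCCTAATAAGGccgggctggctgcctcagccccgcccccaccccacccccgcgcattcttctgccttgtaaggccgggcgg
Fbxl22, exact box at -222, chr9:66514736-66514835, minus strand: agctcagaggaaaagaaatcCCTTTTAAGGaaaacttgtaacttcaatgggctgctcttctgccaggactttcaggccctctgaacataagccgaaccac
Myl6, exact box at -50, chr10:128493010-128493109, minus strand: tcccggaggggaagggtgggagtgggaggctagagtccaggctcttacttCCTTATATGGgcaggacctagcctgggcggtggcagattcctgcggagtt
Vcl, exact box at -227, chr14:20929151-20929250, plus strand: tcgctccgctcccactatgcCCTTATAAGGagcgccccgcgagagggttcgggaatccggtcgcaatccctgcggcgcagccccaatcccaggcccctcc
A match describes these letters only, and no match says only that they are not in the window. The genes with an exact box differed in their ratios, since *Myl9* was 3.81-fold over pericytes, while *Vcl*, vinculin, at 166 CPM was 1.75-fold (0.954 to 3.42).

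The 15 genes with the highest ratio of VSMCA to all other listed cells, among the genes found in at least 25% of VSMCA, were *Tagln*, *Acta2*, *Map3k7cl*, *Pln*, *Myh11*, *Tpm2*, *Mustn1*, *Sncg*, *Lmod1*, *Myl9*, *Mylk*, *Cnn1*, *Nrip2*, *Ppp1r14a* and *Fbxl22*. Of these, 9 were members of the lists of contractile filaments and contraction control, and 6 were not. *Map3k7cl* was at 688 CPM (599 to 787) and had 1 UMI in all pericytes together, a ratio of 102 (18.1 to 4039). *Pln*, phospholamban, which restrains the calcium pump of the store, was at 1013 CPM (903 to 1132) and 20.3 CPM in pericytes. *Sncg*, gamma-synuclein, best known from neurons, was at 1087 CPM in VSMCA and 134 CPM in the listed neurons. It was found in 63.5% of VSMCA and 0.546% of microglia. *Mustn1*, a gene first known from muscle and bone, was at 1418 CPM and 14.99-fold (8.84 to 27.6) over pericytes. *Nrip2* was at 315 CPM against 3.08 CPM in endothelial cells. *Fbxl22*, an F-box gene, was at 305 CPM with no UMI in pericytes, at least 15.04-fold higher. The 10 genes furthest above pericytes also held *Sorbs2*, an adaptor of actin attachments, at 912 CPM against 20.3 CPM, and *Palld*, the actin-binding palladin, at 156 CPM with no pericyte UMI.

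The calcium store was marked by *Pln* together with its target. *Atp2a2*, the calcium pump SERCA2, was at 344 CPM (282 to 416), 3.64-fold (2.07 to 6.88) over pericytes and 3.66-fold (2.64 to 5.10) over endothelial cells. *Itpr1*, the channel that releases calcium on inositol trisphosphate, was at 110 CPM and 1.63 times the pericyte level. Of 6 tested genes of the store, 2 were higher than in pericytes and 3 lower, against 10.0% and 15.8% of all genes tested. The lower ones were *Casq2*, *Stim1* and *Orai1*, with 14, 3 and 4 UMIs. With only the cells of at least 1000 UMIs, *Casq2* turned to 2.46 on the log2 scale, and 30 of the 35 pericytes of that depth held a UMI of the fibroblast or leptomeningeal markers. Ion channels were led by the potassium channel *Kcna5* (Kv1.5) and its beta subunit *Kcnab1*. *Kcna5* was at 146 CPM (107 to 195) in VSMCA, 6.76 CPM in pericytes and 13.9 CPM in endothelial cells, and *Kcnab1* at 101 CPM (68.4 to 143) with no endothelial UMI. *Cacna1c*, the pore of the L-type calcium channel, was low at 48.7 CPM (27.3 to 80.3), from 15 UMIs. *Gja4*, the gap junction protein connexin 37, was at 279 CPM, 10.1-fold (6.00 to 17.8) over endothelial cells and 1.18-fold (0.788 to 1.80) over pericytes. Of 13 tested channels and gap junction genes, 8 were at least 2-fold higher than in endothelial cells and 3 lower. Of 11 tested against pericytes, 5 were higher and 2 lower. Over all genes tested, 8.40% were higher and 22.6% lower than in endothelial cells, and 10.0% higher and 15.8% lower than in pericytes. The potassium channel gene *Kcnj8* was the opposite case, at 6.49 CPM (0.786 to 23.5) from 2 UMIs against 575 CPM in pericytes. Its partner *Abcc9* had no UMI in any of the 230 cells. By the floor of 3 counts this allows up to 1.30% of cells with a UMI, which does not limit the share of cells that express it. *Abcc9* stood at 392.1 CPM in pericytes.

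Receptors for vasoactive signals were sparse. Of 23 such genes in the table, 9 had no UMI in VSMCA and 17 had under 10, so for most of them no difference was detectable at this depth. Those at 0 included *Agtr1a*, *Adra1a*, *Adra1b*, *Htr2a*, *Avpr1a* and *Chrm3*, for each of which the floor of 3 counts is 9.74 CPM. *Ednra*, the endothelin A receptor, was at 87.6 CPM (57.8 to 127.5) and 9.47-fold (3.83 to 28.1) over endothelial cells. *Npy1r*, a neuropeptide Y receptor, was at 84.4 CPM and 4.16-fold (1.28 to 21.5) over pericytes. *Ramp1*, a subunit of the receptor for the dilator peptide CGRP, was at 201 CPM, while its partner *Calcrl* had 1 UMI. *P2ry14*, a receptor for UDP-sugars, was lower than in pericytes, 107 CPM against 656 CPM. Genes that act through cyclic nucleotides and G proteins were higher than in endothelial cells in 10 of 10 tested members. The share over all genes tested was 8.40%. Against pericytes 3 of 10 were higher, with 10.0% over all genes tested. The 3 were the phosphodiesterases *Pde3a*, at 295 CPM and 6.24-fold (2.91 to 15.96), and *Pde5a*, 2.82-fold (1.32 to 6.91), and *Mrvi1*, a target of cyclic GMP-dependent kinase, 6.36-fold (2.34 to 24.2). *Gucy1a3*, a subunit of the nitric oxide receptor, was at 295 CPM in VSMCA, 162 CPM in pericytes and 20.05 CPM in endothelial cells.

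**Figure D2:**
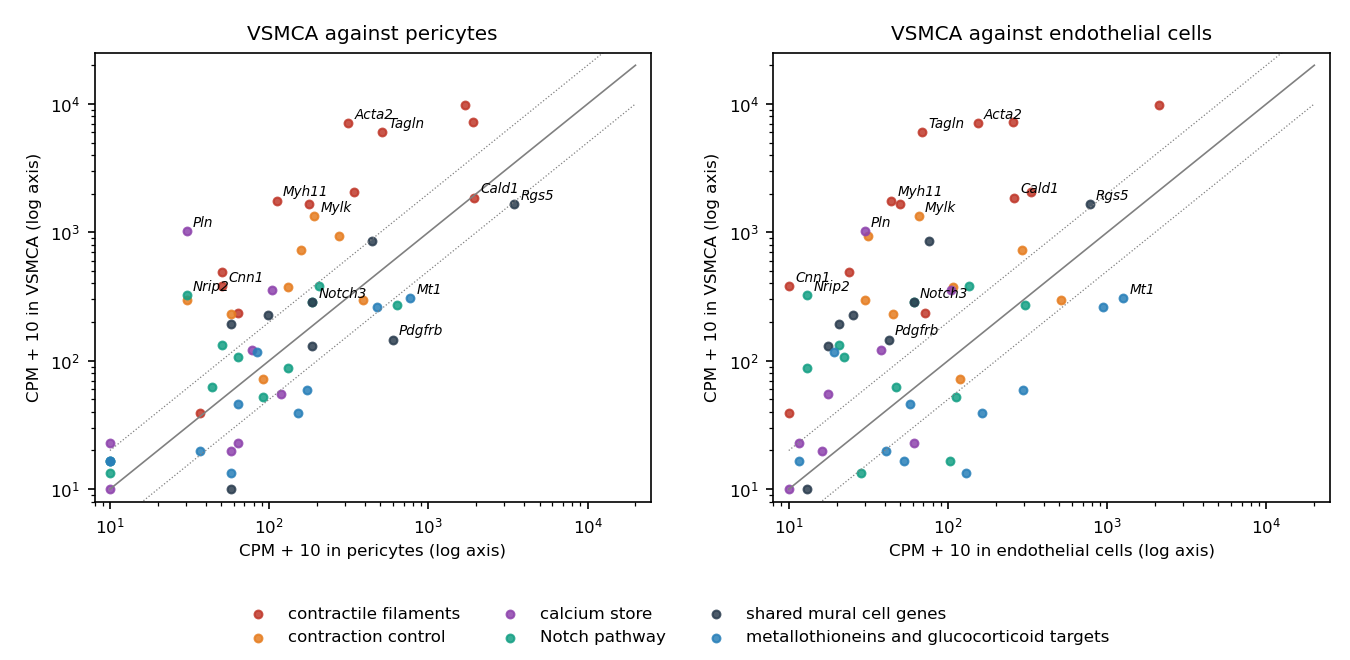
Each point is a gene of 6 gene lists, with CPM + 10 in VSMCA on the y axis and in pericytes (left) or endothelial cells (right) on the x axis, both on log axes; the solid line marks equal levels and the dotted lines 2-fold differences. Acta2, Tagln, Myh11 and Pln lie far above both lines, Cald1 lies on the line for pericytes, and Rgs5 and Pdgfrb lie below it for pericytes and above it for endothelial cells.

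Notch genes separated VSMCA from endothelium more than from pericytes. *Notch3*, the Notch receptor of mural cells, was at 276 CPM (220 to 341), 5.42-fold (3.59 to 8.37) over endothelial cells and 1.57-fold (1.00 to 2.54) over pericytes. The ligand *Jag1* was at 373 CPM and 2.95-fold (2.205 to 3.97) over endothelial cells. Among Notch target genes, *Heyl* was 25.3-fold (6.27 to 221) over the 2 endothelial UMIs, and *Hes1* was lower than in pericytes at 0.423 times (0.310 to 0.576). Of 11 Notch genes, 6 were at least 2-fold higher than in endothelial cells and 3 lower, against 8.40% and 22.6% of all genes tested. The lower ones were *Notch1*, *Dll4* and *Hey1*. Of 9 tested against pericytes, *Nrarp* and *Nrip2* were higher and *Hes1* lower, with 10.0% and 15.8% over all genes tested. Of 10 tested transcription regulators of smooth muscle, 1 was higher and 1 lower than in pericytes, with 10.0% and 15.8% over all genes tested. *Myocd*, myocardin, had 6 UMIs (19.5 CPM, 7.15 to 42.4), *Srf* 8 and *Mkl1* 4, and *Gata6* had none. The regulator higher than in pericytes was *Mef2d*, with 21 UMIs, and the lower one was *Nr2f2* (COUP-TFII), at 253 CPM against 554 CPM. The transcription factor *Ebf1* was at 532 CPM in VSMCA and 473 CPM in pericytes.

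Of the 8 genes shared by mural cells, 7 of 7 tested were at least 2-fold higher in VSMCA than in endothelial cells. Against pericytes 2 were higher and 2 lower. Over all genes tested, 8.40% were higher than in endothelial cells, and 10.0% were higher and 15.8% lower than in pericytes. *Rgs5*, a brake on G protein signals and a marker of pericytes, was at 1642 CPM (1502 to 1792) in VSMCA, 3441 CPM in pericytes and 766 CPM in endothelial cells. Of the 35 pericytes with at least 1000 UMIs, 30 held a fibroblast or leptomeningeal UMI. Among cells of that depth the *Rgs5* difference to pericytes turned to 0.18 on the log2 scale. Its relative *Rgs4* went the other way, at 841 CPM in VSMCA and 433 CPM in pericytes, 1.94-fold (1.47 to 2.60). *Pdgfrb*, the receptor for the PDGF-B that endothelium releases, was at 136 CPM against 588 CPM in pericytes. *Vtn*, vitronectin, was at 237 CPM against 6665 CPM, or 0.0355 times (0.0276 to 0.0451). The contrast with pericytes went along with another marker set, since 63 of the 168 listed pericytes (37.5%) held a UMI of the fibroblast or leptomeningeal markers, against 16 of 230 VSMCA. *Dcn*, *Apod*, *Rbp4*, *Lum* and *Spp1* headed the genes lower in VSMCA. In the 105 pericytes without such a UMI, *Apod* was at 201 CPM instead of 4779 CPM, whereas *Kcnj8* was at 966 CPM, *Abcc9* at 711 CPM and *Rgs5* at 5381 CPM, so these stood further from VSMCA there. Of the 1964 CPM of the 6 pericyte markers in VSMCA, *Higd1b* gave 1149 CPM.

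**Figure D3:**
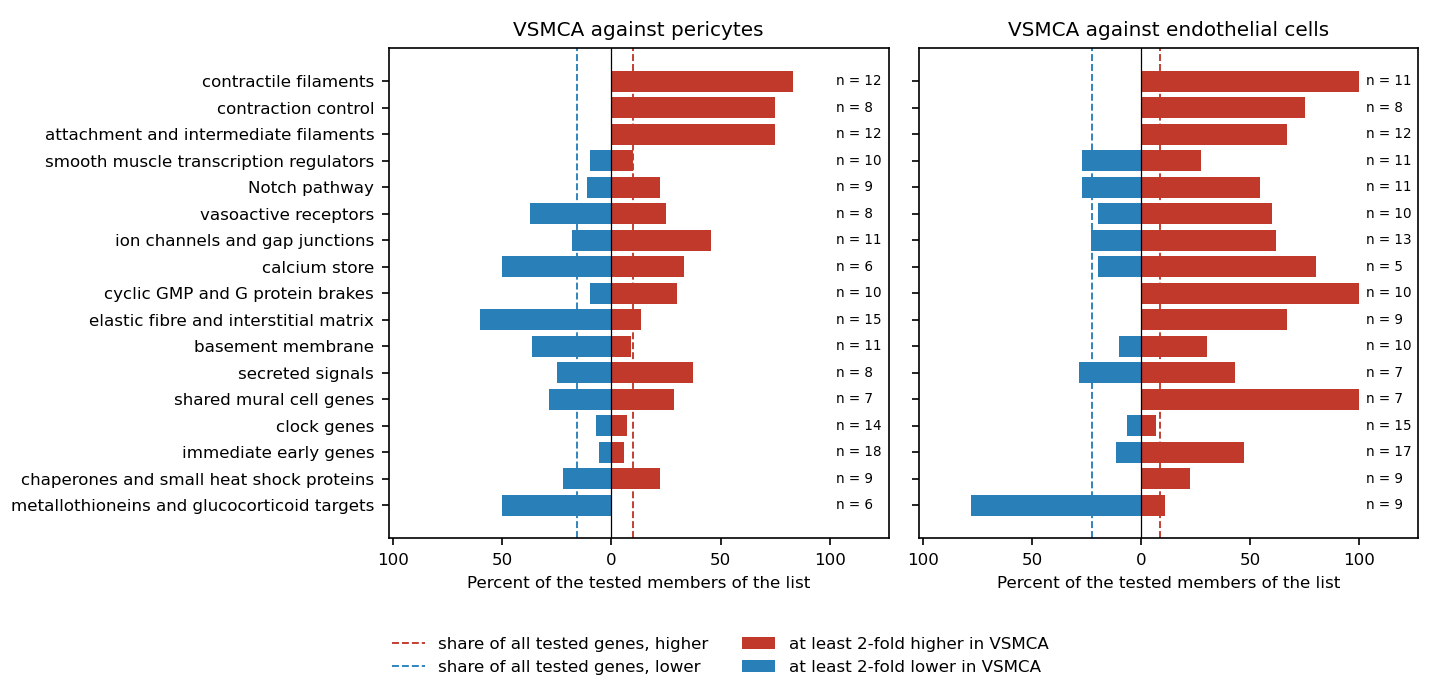
Bars give, for each of 17 gene lists (y axis), the percent of its tested members at least 2-fold higher (to the right) or lower (to the left) in VSMCA than in pericytes or endothelial cells; n is the number of tested members and the dashed lines are the shares over all tested genes. The 3 contractile and attachment lists extend to the right in both panels, and the matrix list extends to the left against pericytes and to the right against endothelial cells.

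Matrix genes depended on which pericytes were compared. Against all listed pericytes, 9 of 15 tested genes of elastic fibres and interstitial matrix were at least 2-fold lower in VSMCA and 2 higher. Over all genes tested, 15.8% were lower and 10.0% higher. The median log2 difference of the 15 was -1.66. It was 0.42 over the 8 genes tested against the 105 pericytes with no fibroblast or leptomeningeal UMI, where all genes tested had a median of -0.04. This list shares *Col1a1* and *Col1a2* with the markers used to leave cells out. *Col1a1* was at 0 in VSMCA, *Col1a2* at 51.9 CPM and *Col3a1* at 19.5 CPM. *Eln*, elastin, which forms the elastic layers of larger arteries, had 9 UMIs (29.2 CPM, 13.4 to 55.5) and did not differ from the 20.3 CPM of pericytes or the 20.05 CPM of endothelial cells beyond counting error. *Aspn*, the small proteoglycan asporin, was at 682 CPM (593 to 780), 2.46-fold (1.75 to 3.53) over pericytes and 44.2-fold (23.6 to 93.5) over endothelial cells. *Sparcl1*, a matrix-associated protein, was at 2178 CPM and 2.58-fold (2.13 to 3.15) over pericytes. *Mgp*, an inhibitor of calcification, was at 730 CPM, against 2907 CPM in pericytes, a ratio of 0.251 (0.213 to 0.296). Of the basement membrane genes 1 of 11 was higher than in pericytes and 4 were lower, against 10.0% and 15.8% of all genes tested. The higher one was the laminin chain *Lama5*, with 21 UMIs and none in pericytes. Among secreted signals, *Pdgfa* was at 334 CPM (273 to 405), 4.95-fold (2.58 to 10.6) over pericytes and 8.03-fold (5.21 to 12.8) over endothelial cells. *Tgfb3* was at 77.9 CPM with no endothelial UMI, at least 16.8-fold higher. The chemokine *Cxcl12* was low at 12.98 CPM against 777 CPM in endothelial cells, and *Edn1*, *Vegfa*, *Igf1*, *Ccl2* and *Il6* were at 0 in VSMCA.

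Of 14 clock genes tested at Zeitgeber time 12, 1 was at least 2-fold higher and 1 lower in VSMCA than in pericytes, where 10.0% of all genes were higher and 15.8% lower. Of 15 tested against endothelial cells, 1 was higher, *Bhlhe41*, and 1 lower, with 8.40% and 22.6% over all genes. *Rora*, an activator of the clock, was the lower gene in both comparisons, at 29.2 CPM from 9 UMIs against 81.1 CPM in pericytes and 87.9 CPM in endothelial cells. *Dbp*, a clock output gene, was at 354 CPM (291 to 427), 615 CPM in pericytes and 244 CPM in endothelial cells. *Per3*, a repressor of the clock, was at 162 CPM, 243 CPM and 185 CPM in the same order, and *Nr1d2*, which encodes REV-ERB beta, at 94.1 CPM, 128.4 CPM and 87.9 CPM. *Arntl*, the activator BMAL1, and *Npas2* were at 0 in all 3 types. *Ciart* was the gene higher than in pericytes, 58.4 CPM from 18 UMIs against 13.5 CPM from 2. In the list of metallothioneins, glucocorticoid targets and the glucocorticoid receptor gene, 7 of 9 tested genes were lower in VSMCA than in endothelial cells, 1 was higher and 1 was neither. Over all genes tested against endothelial cells, 22.6% were lower and 8.40% higher. *Mt1*, metallothionein 1, was at 299 CPM (241 to 366) against 1246 CPM, *Tsc22d3* (GILZ) at 250 CPM against 928 CPM, and *Sgk1* had 1 UMI against 120 CPM. The receptor gene *Nr3c1*, counted among the 7, was at 29.2 CPM in VSMCA and 154 CPM in endothelial cells. *Errfi1* was the higher gene, 107 CPM against 9.25 CPM, and *Mt3* was neither. Among chaperones, the muscle-associated small heat shock proteins *Cryab* and *Hspb6* were higher than in endothelial cells, *Cryab* at 607 CPM by 12.3-fold (8.42 to 18.5), while *Hsp90aa1* at 295 CPM was within counting error of the 290 CPM of endothelial cells.

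Variance beyond counting among the 230 cells was seen mainly in a few genes, and genes with few UMIs can show little of it. Over the 543 genes found in at least 25% of VSMCA, the variance between cells was 1.14 times that of counting at the cells' depths in the median gene, and above 2 times in 26 genes. The 10 genes with the highest ratio were *Malat1* (29.3), *Actb* (27.1), *Hba-a2* (10.9), *Hba-a1* (7.70), *mt-Atp6* (7.37), *Rgs5* (6.72), *mt-Co3*, *mt-Cytb*, *mt-Nd1* and *mt-Co1*. Nuclear, mitochondrial and hemoglobin RNA fill this list apart from *Actb* and *Rgs5*. Contractile genes had lower ratios, 3.68 for *Acta2*, 2.61 for *Tagln* and 1.41 for *Myh11*. At an equal relative spread this ratio rises with the UMIs of a gene, so it does not rank genes of unlike level. *Rgs5* was found in 126 cells, with up to 35 UMIs in 1 cell and a single UMI in 44 cells, and no UMI was found in 104, which may also express it. A *Rgs5* UMI was found in 54.8% of VSMCA and 6.38% of microglia, or 40.9% and 4.06% after thinning. The divisions by *Rgs5* and *Fos* were chosen after these values were seen.

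**Figure D4:**
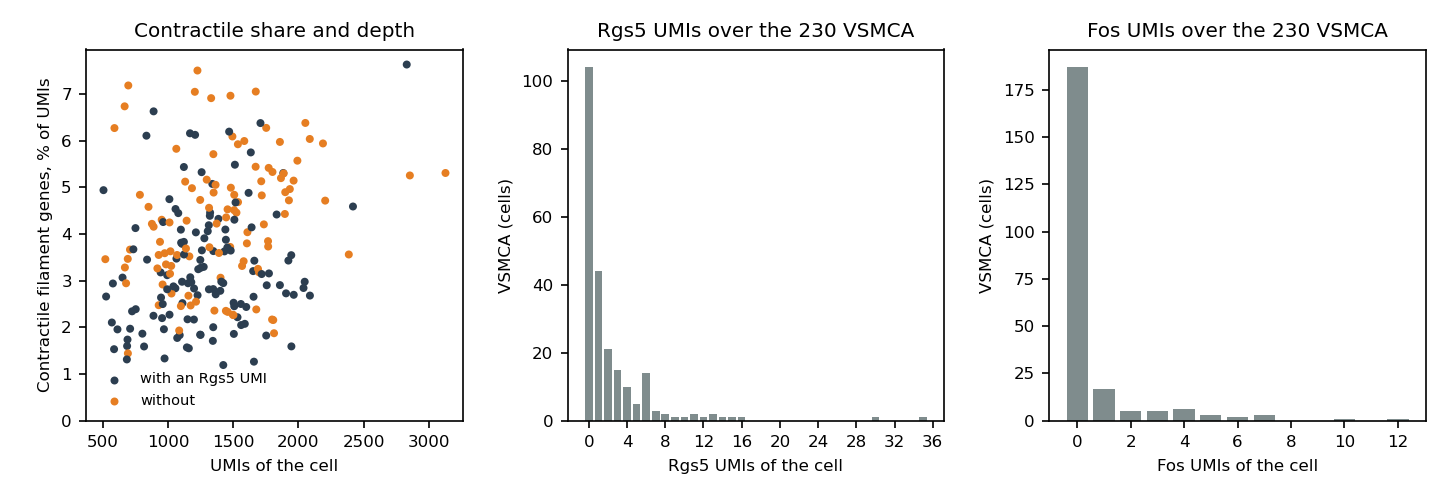
Left, percent of a cell's UMIs from the 12 contractile filament genes against the UMIs of the cell, 1 point for each VSMCA, coloured by whether an Rgs5 UMI was found; middle and right, number of VSMCA with a given count of Rgs5 or Fos UMIs. Contractile shares run from 1.19% to 7.63%, 104 cells have no Rgs5 UMI and 187 have no Fos UMI.

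VSMCA with an *Rgs5* UMI held more of the genes linked with pericytes and less of the contractile genes. *Cnn1* was at 155 CPM (100 to 228) in cells with *Rgs5* and 615 CPM (494 to 755) in cells without, a ratio of 3.97 (2.53 to 6.46) of without to with. *Tagln* was at 4757 CPM with and 7355 CPM without, and *Acta2* at 5858 CPM (5491 to 6244) with and 8318 CPM (7857 to 8798) without. *Pln* followed, at 705 CPM with and 1352 CPM without, while *Myl9* differed little, 6953 CPM against 7512 CPM. The median contractile share was 2.98% of UMIs in cells with *Rgs5* and 4.27% in cells without. In the other direction, *Higd1b*, a small mitochondrial protein gene found in pericytes, was at 1689 CPM (1494 to 1902) with *Rgs5* and 553 CPM (439 to 688) without. *Ndufa4l2*, a mitochondrial gene induced in hypoxia, was at 749 CPM with and 178 CPM without. *Sncg* showed no such difference, at 1021 CPM (871 to 1189) with and 1161 CPM (993 to 1349) without. The median depth was 1250.5 UMIs in cells with *Rgs5* and 1423.5 in cells without, so the group with *Rgs5* was not the deeper one. After thinning to 500 UMIs, *Cnn1* was found in 3.19% of 94 cells with *Rgs5* and 12.5% of 136 without. Of the other pericyte markers, *Vtn* was at 346 CPM with *Rgs5* and 116 CPM without, and *Atp13a5* had 25 and 4 UMIs. *Kcnj8* had 2 UMIs in the cells with *Rgs5* and *Abcc9* none, against 575 CPM and 392.1 CPM in pericytes. Without the cells holding a UMI of *Kcnj8*, *Abcc9* or *Atp13a5*, the *Cnn1* ratio was 3.54. The part of pericyte RNA in this division was not tested.

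A smaller group of 43 VSMCA (18.7%, against 12.8% of microglia, or 10.9% and 8.30% after thinning) held a UMI of *Fos*, the immediate early gene whose product forms the AP-1 factor with Jun proteins. These genes respond within minutes to stimuli and are also known to respond to tissue dissociation, whose part was not tested here. Of 8 other early genes compared, 7 had most of their UMIs in the *Fos* cells, and *Egr1* had 8 UMIs in them and 8 in the rest. *Junb* was at 1475 CPM in cells with *Fos* and 111 CPM in cells without, *Btg2* at 1167 CPM and 61.7 CPM, *Klf2* at 1813 CPM and 156 CPM, and *Nr4a1* at 307 CPM and 12.3 CPM. Among the 18 early genes, 3 in 4 of all UMIs lay in 37 cells. *Fos* and *Rgs5* tended to be found in different cells. Of the 126 cells with *Rgs5*, 10 had *Fos* (7.94%), and of the 104 without, 33 (31.7%). *Rgs5* was at 215 CPM (118 to 361) in the *Fos* cells and 2025 CPM (1850 to 2212) in the rest. After thinning, *Rgs5* was at 400.0 CPM in 25 cells with *Fos* and 1961 CPM in 205 without, and *Fos* at 213 CPM in cells with *Rgs5* and 500 CPM without, so both differences were smaller. *Cnn1* was higher in the *Fos* cells, 845 CPM (636 to 1100) against 247 CPM (188 to 318), and so was *Myh11*, 2489 CPM against 1560 CPM. In the unlisted cells of the same library, described next, *Cnn1* was at 904 CPM with *Fos* and 396 CPM without, whereas *Myh11* was at 1583 CPM and 1598 CPM. Over 7 other libraries *Cnn1* was higher with *Fos* in 5 and *Myh11* in 4. The *Fos* cells had a median of 1479 UMIs and the rest of 1279. Against other types, *Fos* in VSMCA, 441 CPM, was close to pericytes (460 CPM) and above endothelial cells (40.1 CPM). Of the 18 early genes 1, *Btg2*, was at least 2-fold higher than in pericytes, where 10.0% of all genes tested were. In the 105 pericytes without fibroblast or leptomeningeal UMIs, 10 of 17 tested early genes were higher in VSMCA, where 15.3% of all genes tested were.

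Cells of the same kind were then sought in every library by clustering all 29571 cells without any of the list genes. A cluster of 1719 cells held 224 of the 230 VSMCA, only 3 other listed cells, and 167 cells of the brainstem NS library that the part of the list used here did not name. In the 167 unlisted cells *Acta2* was at 7172 CPM, *Tagln* at 6165 CPM and *Myh11* at 1596 CPM. *Klf2* was lower in them, 262 CPM (200 to 337) against 506 CPM (430 to 592). The other libraries contributed 89, 120, 130, 71, 70, 5, 404 and 436 cells, numbered 1 to 6, 8 and 9, and the 5 cells of library 6 are left out of the ranges. Over the 7 remaining libraries *Acta2* ran from 5942 to 13881 CPM with a median of 11649 CPM, and *Tagln* from 4954 to 9224 CPM. Libraries 8 and 9, whose cluster cells had medians of 953 and 916.5 UMIs, were nearest to the brainstem NS library at 7198 CPM and 5942 CPM of *Acta2*. The libraries with the 5 highest values had cells of 342.5 to 682 UMIs in the median, so level and depth cannot be told apart. *Myh11* ran from 1436 to 2587 CPM. *Kcnj8* stayed between 0 and 49.0 CPM in these clusters.

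**Figure D5:**
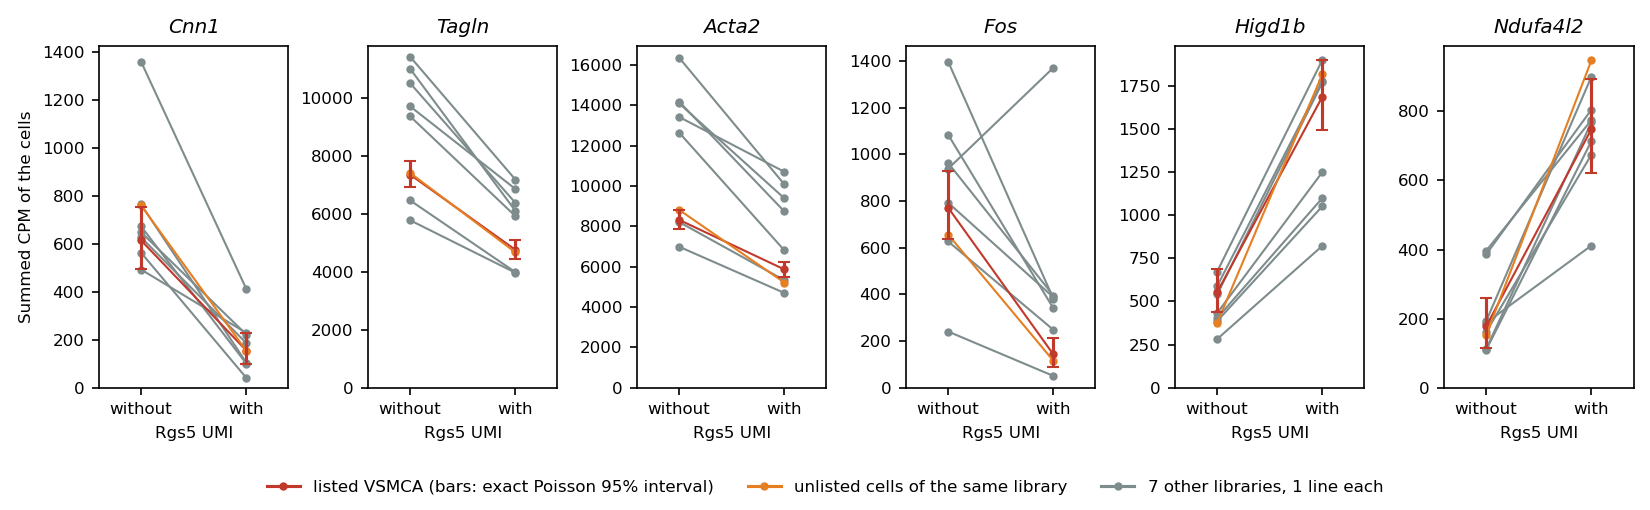
For 6 genes, summed CPM of smooth muscle cells without (left) and with (right) an Rgs5 UMI; red, listed VSMCA with exact Poisson 95% intervals, orange, unlisted cells of the same library, grey, 7 other libraries. Cnn1, Tagln and Acta2 fall and Higd1b and Ndufa4l2 rise from left to right in every line, and the line of Fos that rises is library 5.

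Most differences by *Rgs5* had the same direction in cells that had no part in choosing the division. *Cnn1* was higher in cells without *Rgs5* in 7 of 7 libraries, by 2.16 to 13.9 times with a median of 3.37, and in the unlisted cells of the brainstem NS library at 760 CPM against 153 CPM. *Acta2* and *Tagln* were higher without *Rgs5* in 7 of 7 libraries as well, by medians of 1.54 and 1.59 times, and *Myh11* in 6 of 7. *Higd1b* and *Ndufa4l2* were higher with *Rgs5* in 7 of 7, by medians of 2.89 and 4.19 times. The intervals of cells with and without *Rgs5* were apart in fewer libraries. This was so in 3 of 7 for *Cnn1*, 6 for *Acta2*, 6 for *Tagln*, 2 for *Myh11*, 4 for *Higd1b* and 4 for *Ndufa4l2*. *Sncg* had no common direction, being higher without *Rgs5* in 3 of 7. *Fos* was higher without *Rgs5* in 6 of 7 libraries, by a median of 2.53 times over the 7, with intervals apart in 3. The exception was library 5, where *Fos* was at 1372 CPM in cells with *Rgs5* and 938 CPM in cells without. The regions and sleep groups of these libraries are not known here, so they are given side by side and not as replicates.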

How the data were processed

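The deposited file is a table of raw UMI counts per gene and cell, made by the authors with Cell Ranger 2.2.0 on GRCm38 (the submitters' processing notes also name R 3.5.3), with the annotation release not given in the sources used here. Cells were joined to types by the study's list of named cells, held only in part; 0 columns of single samples were left unused. Counts were summed per type. Calls used (CPM + 10) ratios of at least 2 among genes with at least 10 UMIs over both types. Named genes were the members of 17 gene lists, the 15 leading genes, the 10 furthest each way from pericytes and endothelial cells (at least 50 CPM) and the 10 most variable; for the last groups examples are given. Other genes were named after their values were seen. One listed gene, *Adra1d*, was not in the table. The VSMCA and the lists were chosen with earlier results of these data known. Clustering (2000 variable genes, 13 components, 20 neighbours, resolution 1) used scikit-learn 1.9.0 and leidenalg 0.10.2, doublet scores scanpy 1.11.5. Calls, intervals, variance ratios and clustering were tested on simulated data. The own result of 1 list member is not reported here.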

Additional observations from a re-analysis of the deposited data

Results flagged for a closer look

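Beyond the comparisons, the smooth muscle clusters of 3 unassigned libraries held RNA of genes that smooth muscle should lack. *Gh*, growth hormone of the pituitary, was at 42588 CPM in the cluster of library 4 and 5698 CPM in that of library 5, with 0 UMIs in the 230 VSMCA. Over all cells of those libraries *Gh* was at 252578 CPM and 279285 CPM. *Ttr*, transthyretin of the choroid plexus, was at 1196 CPM in the cluster of library 9 and 26719 CPM over all its cells, against 16.2 CPM in VSMCA and 119 CPM over all cells of brainstem NS. The 5 cells of library 6, too few for the ranges, held *Gh* at 242381 CPM.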

How the results depend on the processing

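No paired analysis was possible because each group had 1 library and no test was run. Values below come from a single pool, and low genes pass a 2-fold limit by counting error more easily. The mean over cells gave *Acta2* at 6715 CPM and *Tagln* at 5666 CPM, and a total without mitochondrial and hemoglobin genes gave 7913, 6747 and 1977 CPM for *Acta2*, *Tagln* and *Myh11*, and 9608 CPM as the median *Tagln* over the other libraries (without pituitary hormones too). Thinning lowered their shares to 93.5%, 89.1% and 54.3%. A pseudocount of 1 CPM gave 880 genes higher and 4562 lower than all other listed cells instead of 557 and 2428. Without a minimum, 870 were higher and 1819 lower than pericytes instead of 500 and 791. At 50 CPM in the higher type, 436 were higher and 967 lower than endothelial cells instead of 659 and 1771, and 890 lower than all others. With the rebuilt cluster the *Acta2* ratio without to with *Rgs5* was 1.58 instead of 1.42. The 4 genes with an exact box became 11 with 1 mismatch. At 1000 UMIs per cell the log2 difference to pericytes turned sign for *Adora2a* (0.22), *Casq2* (2.46), *Rgs5* (0.18) and *Ndufa4l2* (0.71), where 30 of 35 pericytes held a fibroblast or leptomeningeal UMI. Against pericytes with no such UMI, which by construction hold no *Col1a2* or *Lum*, it turned for *Emilin1* (0.62), *Col1a2* (2.63), *Ctgf* (0.39), *Lum* (0.41) and *Slc7a11* (0.72). The cause was not tested. Of single genes at least 2-fold apart, 126 further values kept their direction and fell under 2-fold, 38 of them at 1000 UMIs, 32 with types of rebuilt clusters and 25 against pericytes without such UMIs. The other 99 values of whole comparisons, shares and ratios stayed within 1.5 times for counts, or within the counting interval or the spread over libraries. A steady count did not mean the same genes. At 1000 UMIs per cell, 336 of 624 genes higher than in pericytes and 350 of 645 lower were also called in the main comparison. Against pericytes without such UMIs these were 377 of 655 and 409 of 685. With types of rebuilt clusters they were 322 of 490 and 565 of 967. For the *Rgs5* and *Fos* divisions, the rebuilt cluster, the cells without pericyte genes, thinning and the unlisted cells were chosen after seeing the data.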
